A study of Mus musculus with 45 samples.

Results

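The 9 genes described here set or carry out the decision of a cell to die by apoptosis. Bcl2l10, Bcl2l1, Mcl1 and Bcl2 are listed here on the survival side. The others are the pore formers Bax and Bak1, the BH3-only trigger Bbc3 and the initiator caspases Casp8 and Casp9. They were taken by gene symbol from a table of read counts over 55357 genes, and each of the 9 symbols matched 1 row. The rule that took them used symbols and no measured value. Results of these data were known when the set was drawn up, so the choice may not be independent of them.

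Apoptosis through mitochondria turns on the balance inside the BCL2 family. BH3-only proteins such as PUMA, the product of Bbc3, bind the survival members and set BAX and BAK free to open the outer mitochondrial membrane, after which cytochrome c and APAF1 activate caspase 9. A separate route runs from death receptors at the cell surface through the adaptor FADD to caspase 8, which c-FLIP, the product of Cflar, holds in check. Oocytes of the ovary are known to depend on this family, and BCL2L10, also called DIVA or BOO in the mouse, is a member found chiefly in the female germ line. Its place on the survival side is a label of the list used here, and what the protein does in these oocytes was not measured.

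RNA was read from 45 single mouse oocytes, 1 library each. In reconstituted chimeric follicles (RCF), an oocyte is transplanted into a follicle stripped of its own oocyte and cultured there: AY holds aged oocytes in young somatic cells (n = 6), AA aged oocytes in aged somatic cells (n = 12) and YY young oocytes in young somatic cells (n = 11). Control oocytes from young mice were not transplanted: in vitro young (n = 8) went through culture, and in vivo young (n = 8) did not. No group pairs a young oocyte with aged somatic cells. The sources used here do not give strain, genotype, the ages in numbers, the animals behind each library or the meiotic stage at collection. P-values therefore measure the spread between these libraries, which may come from few animals. Libraries held 418703 to 2201980 counts, and 12785 to 16900 genes had at least 1 count. All 12 oocyte markers, among them Gdf9, Zp3 and Mos, had counts in every group. Theca and stroma markers summed to at most 9.74 CPM (counts scaled to library size, so that a change in total RNA per oocyte cannot be seen) and immune markers to at most 13.2 CPM in any library. The endothelium and blood list summed to between 16.8 and 126 CPM, most of it from Pecam1. Pecam1 averaged 47.1 CPM in AY, 70.3 in AA, 57.6 in YY, 68.4 in in vitro young and 52.8 in in vivo young oocytes. Kdr averaged 2.12 CPM in YY to 4.86 CPM in in vivo young oocytes, and Hba-a1 and Alas2 had counts in some groups. Cdh5 of endothelium and both Hbb genes of blood were at 0 throughout. Markers of granulosa and cumulus cells had unequal sums in the groups and are given beside the results below.

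Whole gene spans on mm39, as the deposited table lists them, were as follows. Bcl2l10 lies at chr9:75255040-75258932, Bcl2l1 at chr2:152622588-152673649, Mcl1 at chr3:95566099-95570488 and Bcl2 at chr1:106465908-106642005. Bax lies at chr7:45111121-45116323, Bak1 at chr17:27238784-27247984 and Bbc3 at chr7:16042318-16052131. Casp8 lies at chr1:58834533-58886663 and Casp9 at chr4:141520923-141543288. The table lists other genes across 5 of the 9 spans. Bak1 lies wholly inside Ggnbp1 and Gm50253, both annotated on the opposite strand, and Ggnbp1 held 12 counts in all. Casp9 overlaps Cela2a, with 37 counts, by 1016 bases, and the genes across Bcl2, Bax and Casp8 held 0 counts. The sources used here do not say whether counting used strand, so reads in those stretches may have been lost or assigned to either gene.

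RefSeq windows of 300 bases around annotated starts were at hand for 8 members. They are on GRCm38.p6, an older build than that of the counts. Windows for 3 genes are shown: Casp8 and Bcl2l1, the members whose level differed between AA and YY, and Bax, the pore former with counts. Each runs from 250 bases before to 50 after the start, with matches of 6 motifs in capitals, searched on both strands: the GC box (letters GGGCGG), the CCAAT box (letters CCAAT), the TATA box (letters TATAAA), the E-box (letters CACGTG), a homeobox core (letters TAATTG) and the p53 half-site. The windows are Casp8 at chr1:58802252-58802551 (plus strand), Bcl2l1 at chr2:152831679-152831978 (minus strand, the most upstream of 3) and Bax at chr7:45466849-45467148 (minus strand).
Casp8: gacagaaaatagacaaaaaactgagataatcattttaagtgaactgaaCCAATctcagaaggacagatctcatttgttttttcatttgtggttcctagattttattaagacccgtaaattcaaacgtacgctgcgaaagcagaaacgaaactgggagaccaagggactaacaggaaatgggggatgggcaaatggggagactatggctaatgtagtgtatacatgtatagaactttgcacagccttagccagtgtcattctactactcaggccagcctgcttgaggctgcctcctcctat
Bcl2l1: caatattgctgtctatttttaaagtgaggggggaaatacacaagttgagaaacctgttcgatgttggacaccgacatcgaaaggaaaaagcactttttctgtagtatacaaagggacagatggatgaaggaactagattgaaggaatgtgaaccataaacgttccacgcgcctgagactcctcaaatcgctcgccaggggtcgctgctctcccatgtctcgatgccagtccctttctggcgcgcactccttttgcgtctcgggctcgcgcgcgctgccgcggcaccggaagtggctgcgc
Bax: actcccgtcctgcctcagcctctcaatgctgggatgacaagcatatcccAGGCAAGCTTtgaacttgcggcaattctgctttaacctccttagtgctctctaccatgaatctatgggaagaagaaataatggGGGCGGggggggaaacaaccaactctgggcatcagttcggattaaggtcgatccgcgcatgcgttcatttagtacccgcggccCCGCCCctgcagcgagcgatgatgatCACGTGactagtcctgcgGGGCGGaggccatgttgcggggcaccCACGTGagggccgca
The Casp8 window held 1 CCAAT box and no GC box, and its start lies inside the longer GENCODE M21 gene model, chr1:58795374-58847503 on GRCm38. None of the 6 motifs was found in any of the 3 Bcl2l1 windows. The Bax window held 3 GC boxes, 2 E-boxes and 1 p53 half-site. Of 32851 RefSeq windows of this length, 35.7% held a GC box, 37.4% a CCAAT box, 13.6% a TATA box, 7.15% an E-box, 8.00% a homeobox core and 8.36% a p53 half-site. A match is a description of these letters and not evidence of binding.

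On the survival side, Bcl2l10 stood far above the rest. Its mean over the 45 libraries was 3934 CPM per kilobase of exon, against 19.9 for Bcl2l1, 0.639 for Mcl1 and 0.0498 for Bcl2 on the same scale. That made Bcl2l10 99.5% and Bcl2l1 0.502% of the summed level of the 8 survival-side genes, with Bcl2l2 at 0.107 and Bcl2a1a, Bcl2a1b and Bcl2a1d at 0. Among 52081 genes with an exon length, Bcl2l10 ranked 6th per length over all libraries, and between 3rd and 7th in each group. Its share of all counts had a group mean of 0.507% of counts in AY, 0.497% in AA, 0.522% in YY, 0.425% in in vitro young and 0.435% in in vivo young oocytes. Exon lengths came from GENCODE M21 and cover all annotated exons, so levels per length carry the error of unknown isoform use.

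**Figure D1:**
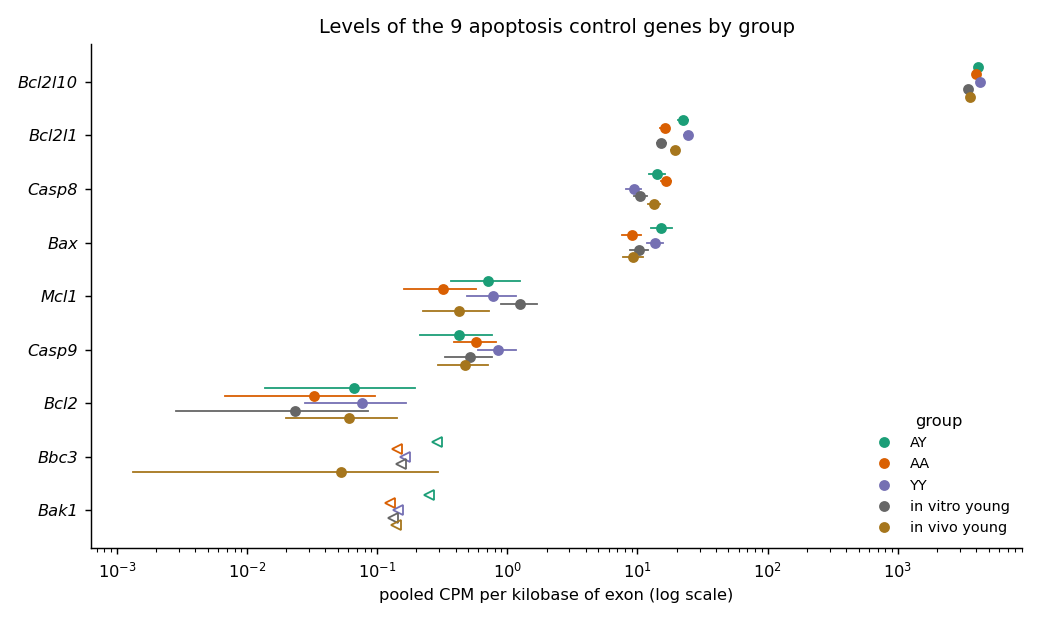
Pooled CPM per kilobase of exon (log axis) of the 9 genes in each of the 5 groups, with lines for the exact Poisson 95% interval and open triangles for the limit that 0 counts allow. Bcl2l10 stands alone at the top in every group, Bcl2l1, Casp8 and Bax form a middle band, and Mcl1, Casp9, Bcl2, Bbc3 and Bak1 lie below them.

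Bcl2l10 also varied least. Its TMM-scaled CPM had a lowest, median and highest value of 4618, 4865 and 5616 in AY, 4166, 5097 and 5919 in AA and 4554, 4749.7 and 5702 in YY. In vitro young oocytes had 3694, 4155 and 4869, and in vivo young oocytes 3736, 4607 and 4947. The 3 chimeric groups lay over each other, and the controls reached lower. The coefficient of variation was 7.24% to 10.5% within groups, where counting error alone would give 1.42% to 1.57%.

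Bcl2l1 encodes BCL-XL, the survival member of many tissues. It had a lowest, median and highest value of 80.8, 96.7 and 133 CPM in AY, 34.2, 74.2 and 113 CPM in AA and 79.6, 105 and 156 CPM in YY. In vitro young oocytes had 50.5, 65.6 and 94.8 CPM and in vivo young oocytes 35.9, 101 and 185 CPM. AA and in vitro young were the low groups, and every pair of groups overlapped. Within-group spread was 18.9% to 42.0% of the mean, against 10.0% to 12.7% from counting alone.

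Mcl1 and Bcl2, which guard many other cell types, were near the limit of detection. Mcl1 had 99 counts in all, in 33 of 45 libraries, with 12 counts in AY, 11 in AA, 23 in YY, 40 in in vitro young and 13 in in vivo young oocytes. Pooled over libraries this came to 2.43 CPM in AY, 1.10 in AA, 2.66 in YY, 4.28 in in vitro young and 1.45 in in vivo young oocytes. Bcl2 had 19 counts in 11 libraries, and no library held more than 3. Neither passed the filter on low counts, so neither was tested in the main fits, and with no filter neither was called in any of the 5 comparisons. The smallest p of these was 0.0286 for Mcl1 in in vitro young over in vivo young oocytes (log2 1.38, edgeR adjusted p = 0.535).

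Of the pore formers, Bax was counted in 44 of 45 libraries and Bak1 in 0 of 45. Bax had a lowest, median and highest value of 17.6, 22.9 and 39.0 CPM in AY, 1.37, 14.1 and 31.5 CPM in AA and 11.9, 23.3 and 32.2 CPM in YY. In vitro young oocytes had 8.76, 17.7 and 26.2 CPM, and in vivo young oocytes 0, 15.7 and 20.4 CPM. AA oocytes were the most scattered: counts ran from 1, in AA replicates 3 and 12, to 35, in replicate 7, and the coefficient of variation of 69.2% compares with 29.1% from counting. A pooled count of 0 for Bak1 allows up to 0.0715 CPM (3 counts of the total), a limit on counting error only and subject to the overlap with Ggnbp1. Per length, Bax averaged 11.1 CPM per kilobase over the 45 libraries, about the level of Casp8 at 13.2 and below Bcl2l1 at 19.9.

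Bbc3 gave 1 count in 45 libraries, in in vivo young replicate 7. Pooled over all libraries this was 0.0238 CPM, with an exact Poisson 95% interval of 0.000604 to 0.133 CPM. Intervals and floors here cover counting error only, since the amplified reads carry no molecular identifiers.

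Casp8 was the better counted of the initiator caspases. It had a lowest, median and highest value of 29.1, 39.2 and 70.6 CPM in AY, 37.0, 50.4 and 61.6 CPM in AA and 15.8, 23.9 and 49.1 CPM in YY. In vitro young oocytes had 20.4, 28.4 and 39.5 CPM, and in vivo young oocytes 23.4, 42.4 and 55.6 CPM. AA oocytes were high, YY and in vitro young oocytes were low, and the AY and in vivo young ranges reached across both. Casp9, the caspase of the apoptosome, had 126 counts in 40 libraries and 0 to 8 in any library. Its mean TMM-scaled CPM was 2.40 in AY, 2.94 in AA, 3.76 in YY, 2.66 in in vitro young and 2.62 in in vivo young oocytes. It did not pass the filter on low counts, so it was not tested in the main fits, and with no filter it was not called in any of the 5 comparisons (AA against YY -0.37, edgeR adjusted p = 0.699).

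**Figure D2:**
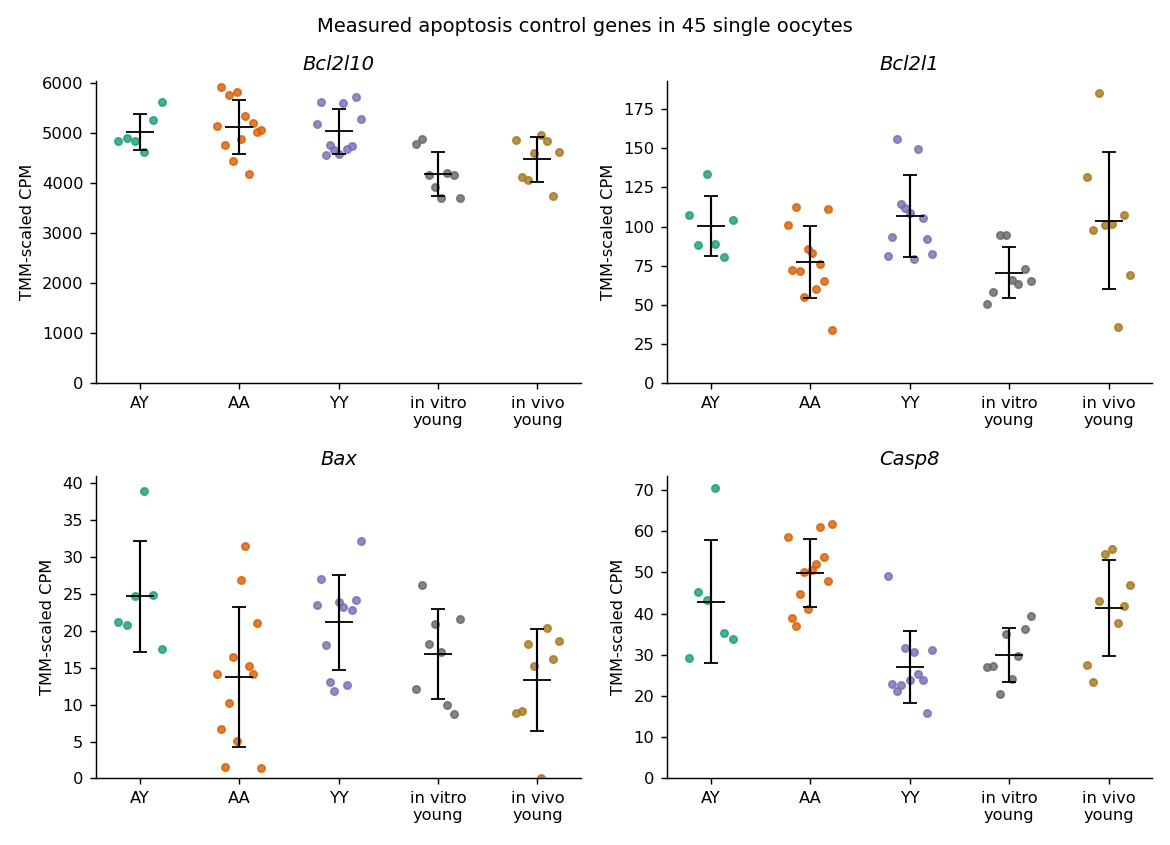
TMM-scaled CPM of Bcl2l10, Bcl2l1, Bax and Casp8 in each of 45 single-oocyte libraries (points), with group mean and SD (bars) for AY, AA, YY, in vitro young and in vivo young. All 12 AA points for Casp8 lie above the YY median of 23.9, and 7 of 12 AA points for Bcl2l1 lie below every YY point.

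Oocytes and somatic cells that were both aged were first set against their young counterparts, AA against YY. Casp8 rose and Bcl2l1 fell in AA oocytes, while Bcl2l10 differed by less than the spread between libraries. Casp8 averaged 49.7 ± 8.27 CPM in AA and 27.1 ± 8.71 CPM in YY oocytes (SD, n = 12 and 11), a log2 fold change of 0.89 ± 0.16 (SE), or 1.86-fold (edgeR quasi-likelihood test, Benjamini-Hochberg adjusted p = 6.05e-05). All 12 AA libraries lay above the YY median and 7 lay above every YY library, and 10 of 11 YY libraries lay below every AA library. Bcl2l1 averaged 77.3 ± 23.2 CPM in AA and 107 ± 26.0 CPM in YY oocytes (SD), and it fell by 0.49 ± 0.15 on the log2 scale (SE, edgeR adjusted p = 0.0104). In AA, 10 of 12 libraries lay below the YY median and 7 below every YY library. These were 2 of the 4 members that passed the filter on low counts, where 27.5% of the 8533 tested genes were called, 12.8% higher and 14.7% lower in AA.

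Bcl2l10 averaged 5119 ± 537 CPM in AA and 5026 ± 453 CPM in YY oocytes (SD), and its log2 change of 0.02 had a 95% interval of -0.11 to 0.15. Bax averaged 13.7 ± 9.49 CPM in AA and 21.1 ± 6.45 CPM in YY oocytes (SD), with a log2 change of -0.58 ± 0.28 (SE) that was not called (edgeR adjusted p = 0.122). Of 14 other settings it was called in 1, voom with quality weights (-0.94, adjusted p = 0.0257). Of 23 fits that left out 1 library it was called in 1, without AA replicate 8 (-0.74, adjusted p = 0.0434). The median change of the 4 tested members was -0.23, beside -0.01 over all tested genes.

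Several measured facts stand beside the Casp8 and Bcl2l1 differences. The 13 granulosa and cumulus markers summed to 156 ± 79.0 unscaled CPM in AA oocytes (range 87.8 to 373) and 78.5 ± 12.9 in YY oocytes (range 65.1 to 112), with 11 of 13 markers counted in each, Amh at 0 in both, Nr5a1 at 0 in AA and Foxl2 at 0 in YY. Of the 13 markers, 9 had a higher mean in AA than in YY oocytes (Inha, Inhba, Fshr, Amhr2, Foxl2, Cyp19a1, Hsd17b1, Fst and Gja1) and 3 a lower one (Nr5a1, Nr5a2 and Kitl). Inha, which encodes the inhibin alpha subunit, averaged 47.7 CPM in AA and 6.71 CPM in YY oocytes, the aromatase gene Cyp19a1 20.8 CPM in AA and 17.01 CPM in YY oocytes, and Nr5a2 36.5 CPM in AA and 44.99 CPM in YY oocytes. With the marker sum as a covariate, chosen after seeing the data, Casp8 differed by 0.86 ± 0.21 (SE, adjusted p = 0.00375) and Bcl2l1 by -0.47 ± 0.19 (adjusted p = 0.0911), so the Bcl2l1 call was lost. Bax differed by -0.12 ± 0.35 (SE, edgeR adjusted p = 0.861) with the same covariate. Only 1 of 11 YY libraries had a marker sum above the lowest AA library, which limits what this fit can adjust. Within AA, Casp8 and the marker sum had a Pearson r of 0.41 and a Spearman rho of 0.39 over 12 libraries, and within YY -0.10 and -0.25 over 11 libraries.

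**Figure D3:**
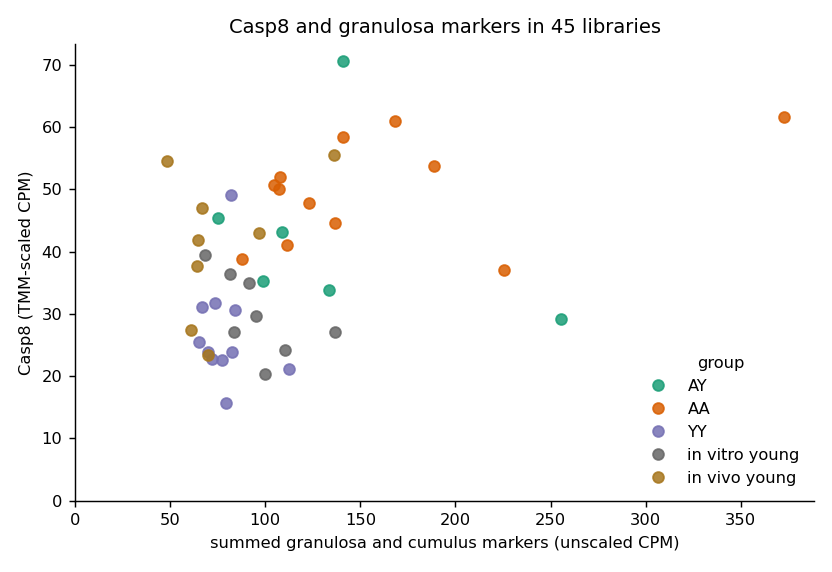
Casp8 (TMM-scaled CPM) against the summed granulosa and cumulus markers (unscaled CPM) in the 45 libraries, 1 point each, coloured by group. The AA and YY marker sums meet only through YY replicate 3, with a sum of 112 CPM and Casp8 at 21.1 CPM, while AA libraries run from 87.8 to 373 CPM on the horizontal axis.

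The libraries also fell into sets that share a pattern over 11 genes that are high in some oocytes and near absent in others, with 2 sets in AA and 4 in YY. The labels do not say what the sets are. No set was shared between AA, AY and YY, so what the sets mark cannot be told apart from the group in comparisons among them. Casp8 averaged 49.9 and 49.4 CPM in the AA sets, of 9 and 3 libraries, and 23.9 to 31.0 CPM in the YY sets. Bcl2l1 averaged at most 81.3 CPM in the AA sets and 101 to 117 CPM in the YY sets, so the set means of the groups did not overlap for either gene. These means come from the same libraries that gave the 2 calls and add no separate support. The share of all genes with set means apart was not counted. Bcl2l10 separated the AA sets from each other, with 4866 to 5919 CPM in the set of 9 and 4166 to 4747 CPM in the set of 3, a difference seen after the sets were formed and not tested. With the counts of each set summed, no member passed the test (Casp8 0.95, edgeR adjusted p = 0.143; Bcl2l1 -0.50, adjusted p = 0.205), and only 2 of all genes were called. With the set as a random block, Bcl2l1 was not called (adjusted p = 0.0841) and Casp8 was. The YY libraries carry 2 runs of library numbers, and both calls held against each run alone. The AA libraries were the same in both of these fits. The library numbers of each group lie in a range of their own, so group and numbering cannot be told apart in any comparison. Against S198 to S202, Casp8 differed by 0.78 (adjusted p = 0.0202) and Bcl2l1 by -0.57 (adjusted p = 0.0470). Against S225 to S231, Casp8 differed by 0.98 (adjusted p = 5.55e-05) and Bcl2l1 by -0.42 (adjusted p = 0.0423). Bax was called against neither run (S198 to S202, -0.35, edgeR adjusted p = 0.661, and S225 to S231, -0.73, adjusted p = 0.0752).

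Aged oocytes in young somatic cells were next compared with aged oocytes in aged somatic cells, AY against AA. No member was called, where 6.59% of genes were (3.52% higher and 3.07% lower in AY), and this comparison shares the AA libraries with the one before it. Bax averaged 24.7 ± 7.53 CPM in AY and 13.7 ± 9.49 CPM in AA oocytes (SD, n = 6 and 12), with a log2 change of 0.78 ± 0.33 (SE, edgeR adjusted p = 0.140). All 6 AY libraries lay above the AA median of 14.1 CPM, and 10 of 12 AA libraries lay below the AY median. Bcl2l1 averaged 101 ± 19.0 CPM in AY and 77.3 ± 23.2 CPM in AA oocytes (SD), a log2 change of 0.39 ± 0.17 (SE, edgeR adjusted p = 0.174), with 6 of 6 AY libraries above the AA median. Casp8 averaged 42.9 ± 14.9 CPM in AY and 49.7 ± 8.27 CPM in AA oocytes (SD), with a log2 change of -0.24 and a 95% interval of -0.62 to 0.13. For Bcl2l10 that interval was -0.18 to 0.12 around -0.03.

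At an unadjusted p under 0.05, edgeR gave 2 members in AY against AA, Bax and Bcl2l1. DESeq2 called 0 and voom with quality weights called 1, which was Bax (1.14, adjusted p = 0.0256). Of all genes, DESeq2 called 712 and voom 848, and the share with an unadjusted p under 0.05 was not counted. The median change of the 4 members was 0.18, beside 0.00159 over all tested genes. Granulosa and cumulus markers summed to 135 ± 63.4 CPM in AY and 156 ± 79.0 CPM in AA oocytes (SD), with 12 and 11 of 13 counted.

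Aged and young oocytes that both sat in young somatic cells were compared as AY against YY. No member was called, where 1.62% of genes were (0.715% higher and 0.902% lower in AY), and both groups also enter the comparisons above. Casp8 averaged 42.9 ± 14.9 CPM in AY and 27.1 ± 8.71 CPM in YY oocytes (SD, n = 6 and 11), with a log2 change of 0.65 ± 0.19 (SE, edgeR adjusted p = 0.0774). All 6 AY libraries lay above the YY median of 23.9 CPM, and 10 of 11 YY libraries lay below the AY median. The YY library that reached 49.1 CPM was replicate 1, and without it Casp8 was called (0.75, adjusted p = 0.0240). Casp8 was also called by DESeq2 (0.65, adjusted p = 0.0390), where voom called 0 members, and against the YY libraries S225 to S231 alone (0.74, adjusted p = 0.0221) but not against S198 to S202 alone (0.54, adjusted p = 0.277). Of all genes, DESeq2 called 193, voom 180, the fit against S225 to S231 alone 847 and that against S198 to S202 alone 134. Values for the other members were not called: -0.01 for Bcl2l10, -0.10 for Bcl2l1 (95% interval -0.45 to 0.25) and 0.20 for Bax (95% interval -0.45 to 0.85). Granulosa and cumulus markers summed to 135 ± 63.4 CPM in AY and 78.5 ± 12.9 CPM in YY oocytes (SD), and their part in these values was not tested beyond the covariate fit, in which Casp8 differed by 0.63 (adjusted p = 0.175).

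**Figure D4:**
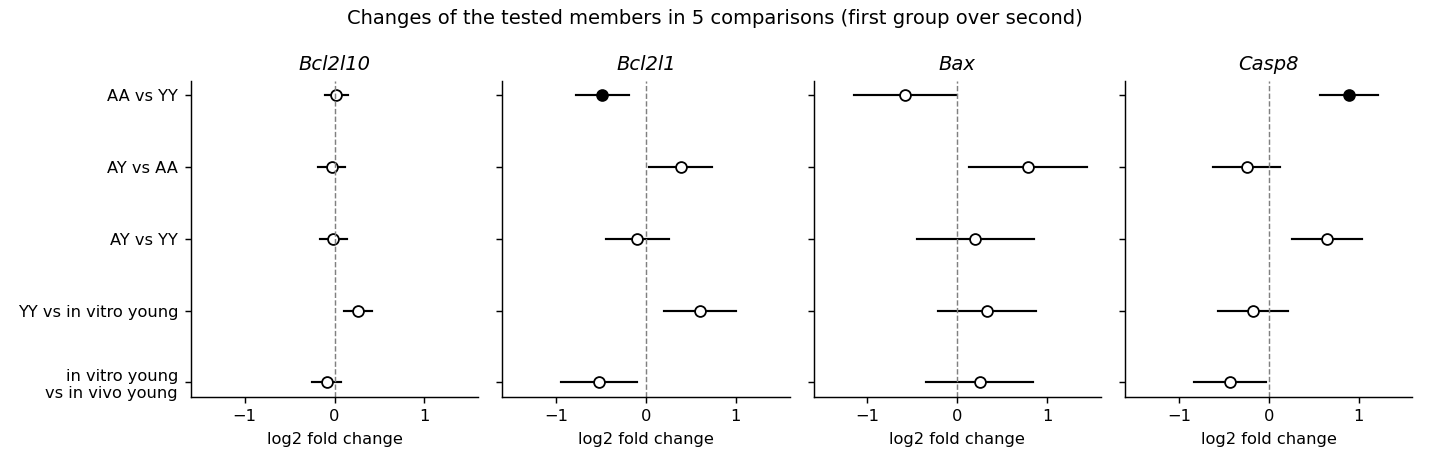
Log2 fold changes (first group over second) of the 4 tested members in 5 comparisons, with 95% intervals from the edgeR fits; filled points passed the adjusted threshold of 0.05. The filled points are Bcl2l1 at -0.49 and Casp8 at 0.89, both in AA vs YY.

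The effect of reconstitution on young oocytes was read from YY against in vitro young oocytes. No member was called, where 2.48% of 8749 tested genes were (0.777% higher and 1.7% lower in YY). Bcl2l10 averaged 5026 ± 453 CPM in YY and 4183 ± 441 CPM in in vitro young oocytes (SD, n = 11 and 8), a log2 change of 0.26 ± 0.08 (SE, edgeR adjusted p = 0.0534). All 11 YY libraries lay above the in vitro young median of 4155 CPM, and 5 above every in vitro young library. Bcl2l1 averaged 107 ± 26.0 CPM in YY and 70.7 ± 16.1 CPM in in vitro young oocytes (SD), a log2 change of 0.60 ± 0.20 (SE, edgeR adjusted p = 0.0846), with 11 of 11 YY libraries above the in vitro young median. Bax changed by 0.33 (95% interval -0.22 to 0.88) and Casp8 by -0.17 (95% interval -0.56 to 0.21), neither called.

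The calls of Bcl2l10 and Bcl2l1 depended on the processing. EdgeR's unadjusted p was under 0.05 for these 2 genes, DESeq2 called 1 member (Bcl2l10, adjusted p = 0.0157) and voom called 2 (Bcl2l10, adjusted p = 0.00753, and Bcl2l1, adjusted p = 0.0392). Of all genes, DESeq2 called 404 and voom 558, and the share with an unadjusted p under 0.05 was not counted. Leaving out YY replicate 3, 4, 5 or 8 or in vitro young replicate 1 or 2 brought Bcl2l10 to 0.27 to 0.30, with adjusted p between 0.0197 and 0.0454. Against the YY libraries S225 to S231 alone Bcl2l10 was called (0.29, adjusted p = 0.0353), and against S198 to S202 alone it was not (0.24, adjusted p = 0.198). Bcl2l1 was called against neither run (S225 to S231, 0.55, adjusted p = 0.133; S198 to S202, 0.68, adjusted p = 0.172). Granulosa and cumulus markers summed to 78.5 ± 12.9 CPM in YY oocytes and 95.8 ± 20.8 CPM in in vitro young oocytes (SD, range 68.3 to 136 in in vitro young), with 11 and 10 of 13 counted and Amh, Amhr2 and Foxl2 at 0 in in vitro young. With this sum as a covariate neither gene was called (0.28 for Bcl2l10, adjusted p = 0.0635, and 0.68 for Bcl2l1, adjusted p = 0.0745).

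Culture itself was read from in vitro young against in vivo young oocytes, where no member passed the test and 0.137% of genes did (0.126% higher and 0.0114% lower in in vitro young). Bcl2l1 averaged 70.7 ± 16.1 CPM in in vitro young and 104 ± 43.6 CPM in in vivo young oocytes (SD, n = 8 each), a log2 change of -0.52 ± 0.21 (SE, edgeR adjusted p = 0.387). All 8 in vitro young libraries lay below the in vivo young median of 101 CPM. Casp8 averaged 29.9 ± 6.52 CPM in in vitro young and 41.3 ± 11.6 CPM in in vivo young oocytes (SD), a log2 change of -0.43 ± 0.20 (SE, edgeR adjusted p = 0.480), again with 8 of 8 below the in vivo young median. These 2 genes had an unadjusted p under 0.05, and DESeq2 and voom with quality weights each called 0 members. Of all genes, DESeq2 called 44 and voom 35, and the share with an unadjusted p under 0.05 was not counted. Bcl2l10 changed by -0.09 (95% interval -0.25 to 0.08) and Bax by 0.25 (95% interval -0.35 to 0.85). Granulosa and cumulus markers summed to 95.8 ± 20.8 CPM in in vitro young and 75.9 ± 27.8 CPM in in vivo young oocytes (SD, range 48.4 to 136 in in vivo young), with 10 of 13 counted in each and Amh, Foxl2 and Fst at 0 in in vivo young. With this sum as a covariate Bcl2l1 differed by -0.64 (adjusted p = 0.399) and Casp8 by -0.39 (adjusted p = 0.733).

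Setting all 5 groups in 1 fit gave the order of levels and some pairs not covered above. For Casp8 the order of mean CPM was AA (49.7), AY (42.9), in vivo young (41.3), in vitro young (29.9), then YY (27.1). For Bcl2l1 it was YY (107), in vivo young (104), AY (101), AA (77.3) and in vitro young (70.7). Bax ran from AY (24.7) through YY (21.1), in vitro young (16.9) and AA (13.7) to in vivo young (13.3), and Bcl2l10 from AA (5119) through YY (5026), AY (5008) and in vivo young (4471) to in vitro young (4183). Of the 16 pairs of neighbours in these orders, 0 were called in the 45-library fit, with the smallest adjusted p at 0.237.

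Some pairs farther apart were called in that fit. Among its 9162 tested genes, 16% were called in AA against in vitro young, 12.6% in AA against in vivo young, 4.13% in YY against in vitro young and 11.8% in YY against in vivo young oocytes. Casp8 was lower in YY than in in vivo young oocytes (log2 -0.61 ± 0.18, edgeR adjusted p = 0.0176). Against those same in vivo young oocytes the AA value was 0.29 (95% interval -0.05 to 0.63, adjusted p = 0.273). Casp8 was higher in AA than in in vitro young oocytes (0.72 ± 0.17, adjusted p = 0.00245). Bcl2l10 was higher in AA (0.29 ± 0.07, adjusted p = 0.0033) and in YY (0.27 ± 0.07, adjusted p = 0.0203) than in in vitro young oocytes in this fit. In AY it differed from in vitro young oocytes by 0.26 ± 0.08 (SE, edgeR adjusted p = 0.0557), not called. Against in vivo young oocytes Bcl2l10 was not called in AA (0.19, adjusted p = 0.0542), YY (0.17, adjusted p = 0.103) or AY (0.17, adjusted p = 0.237). Bcl2l1 in AA differed from in vitro young oocytes by 0.13 (95% interval -0.25 to 0.505) and from in vivo young oocytes by -0.40 (adjusted p = 0.153). The granulosa and cumulus sums of these groups were 135 CPM in AY, 156 CPM in AA, 78.5 CPM in YY, 95.8 CPM in in vitro young and 75.9 CPM in in vivo young oocytes. Their part in the values of the 45-library fit was not tested.

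The wider pathway was read from 9 lists with 66 genes, 57 of them not members, of which 27 could be tested. In AA against YY, 7 of these 27 rose and 0 fell, beside 12.8% and 14.7% of all tested genes, and their median change was 0.05. With the library sets as a random block, 6 of the 7 were not called, all but Mdm4 (adjusted p 0.0558 to 0.135), and with the counts of each set summed none of the 7 was called (adjusted p 0.236 to 0.546). Of the death receptor list, 1 of 5 tested genes rose: Cflar, the inhibitor of caspase 8, whose gene also lies on chromosome 1 (chr1:58750667-58798044). Cflar averaged 36.7 ± 17.5 CPM in AA and 19.5 ± 8.87 CPM in YY oocytes (SD), a log2 change of 0.91 ± 0.27 (SE, edgeR adjusted p = 0.0102). Its lowest, median and highest values were 15.8, 30.8 and 72.9 CPM in AA and 9.89, 17.1 and 38.2 CPM in YY oocytes, so the groups overlapped. The call was lost with the granulosa marker sum as a covariate (0.73, adjusted p = 0.142), with the library sets as a random block (adjusted p = 0.0693) and against YY libraries S198 to S202 alone (0.71, adjusted p = 0.280). Cflar ran from 9.66 to 65.4 CPM in in vitro young and from 15.5 to 56.9 CPM in in vivo young oocytes. For Cflar, YY differed from in vitro young oocytes by -0.71 ± 0.30 (SE, edgeR adjusted p = 0.215), which was not called. Fadd, the adaptor between receptor and caspase 8, averaged 18.3 ± 6.60 CPM in AA and 17.3 ± 4.97 CPM in YY oocytes (SD), and its change was not called.

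Of the p53 list, 2 of 6 tested genes rose in AA. Mdm4, an inhibitor of p53, averaged 4947 ± 550.1 CPM in AA and 3646 ± 716 CPM in YY oocytes (SD), a log2 change of 0.43 ± 0.09 (SE, edgeR adjusted p = 0.000471). Chek1, a checkpoint kinase, differed by 0.23 ± 0.08 (adjusted p = 0.0278). Trp53 itself had a median of 51.7 CPM in AA and 51.8 CPM in YY oocytes and was not called (log2 -0.01, adjusted p = 0.972). Against YY libraries S198 to S202 alone, Mdm4 differed by 0.21 (adjusted p = 0.151) and Chek1 by 0.05 (adjusted p = 0.779), and neither was called.

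Among other BCL2 relatives, 2 of 5 tested genes rose in AA, the mitophagy receptors Bnip3 (0.55 ± 0.16, adjusted p = 0.00917) and Bnip3l (0.23 ± 0.08, adjusted p = 0.0353). Birc3, an inhibitor of apoptosis protein, was the 1 of 5 tested genes of its list that rose (0.25 ± 0.07, adjusted p = 0.0110), with means of 883 ± 92.1 CPM for AA oocytes and 741 ± 105 CPM for YY oocytes (SD). Aifm1, a mitochondrial flavoprotein linked to nuclear DNA breakdown, rose by 0.46 ± 0.17 (adjusted p = 0.0415) and was the only tested gene of the nuclease list. Leaving out 1 library ended 3 of these 7 calls in some fits. For Chek1 these were AA replicate 3, 9 or 12 and YY replicate 7, 8 or 10 (0.19 to 0.21, adjusted p 0.0511 to 0.0716). For Bnip3l they were AA replicate 1, 3, 4, 5, 8, 9 or 12 and YY replicate 3, 6, 7 or 11 (0.20 to 0.23, adjusted p 0.0514 to 0.0666), and for Aifm1 AA replicate 1, 3, 6, 7, 8, 9, 11 or 12 and YY replicate 5, 7, 9, 10 or 11 (0.39 to 0.46, adjusted p 0.0510 to 0.0887). With the granulosa marker sum as a covariate, Mdm4 (0.46, adjusted p = 0.00798) and Bnip3 (0.62, adjusted p = 0.0324) were called and Cflar, Bnip3l, Birc3, Chek1 and Aifm1 were not, though Bnip3 was not called with the sets as a random block (0.60, adjusted p = 0.0558). With no filter on low counts the Bnip3l call was lost as well (0.27, adjusted p = 0.0811). Against YY libraries S198 to S202 alone, Birc3 (0.08), Aifm1 (0.12) and Bnip3l (0.23) were not called either, and Bnip3 was not called against S225 to S231 alone (0.45, adjusted p = 0.0532). Both tested BH3-only genes, Bcl2l11 and Bik, were not called. The apoptosome and caspase list held 4 tested genes, of which Casp8 rose, and Apaf1 had a log2 change of -0.60 ± 0.26 (adjusted p = 0.0847).

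**Figure D5:**
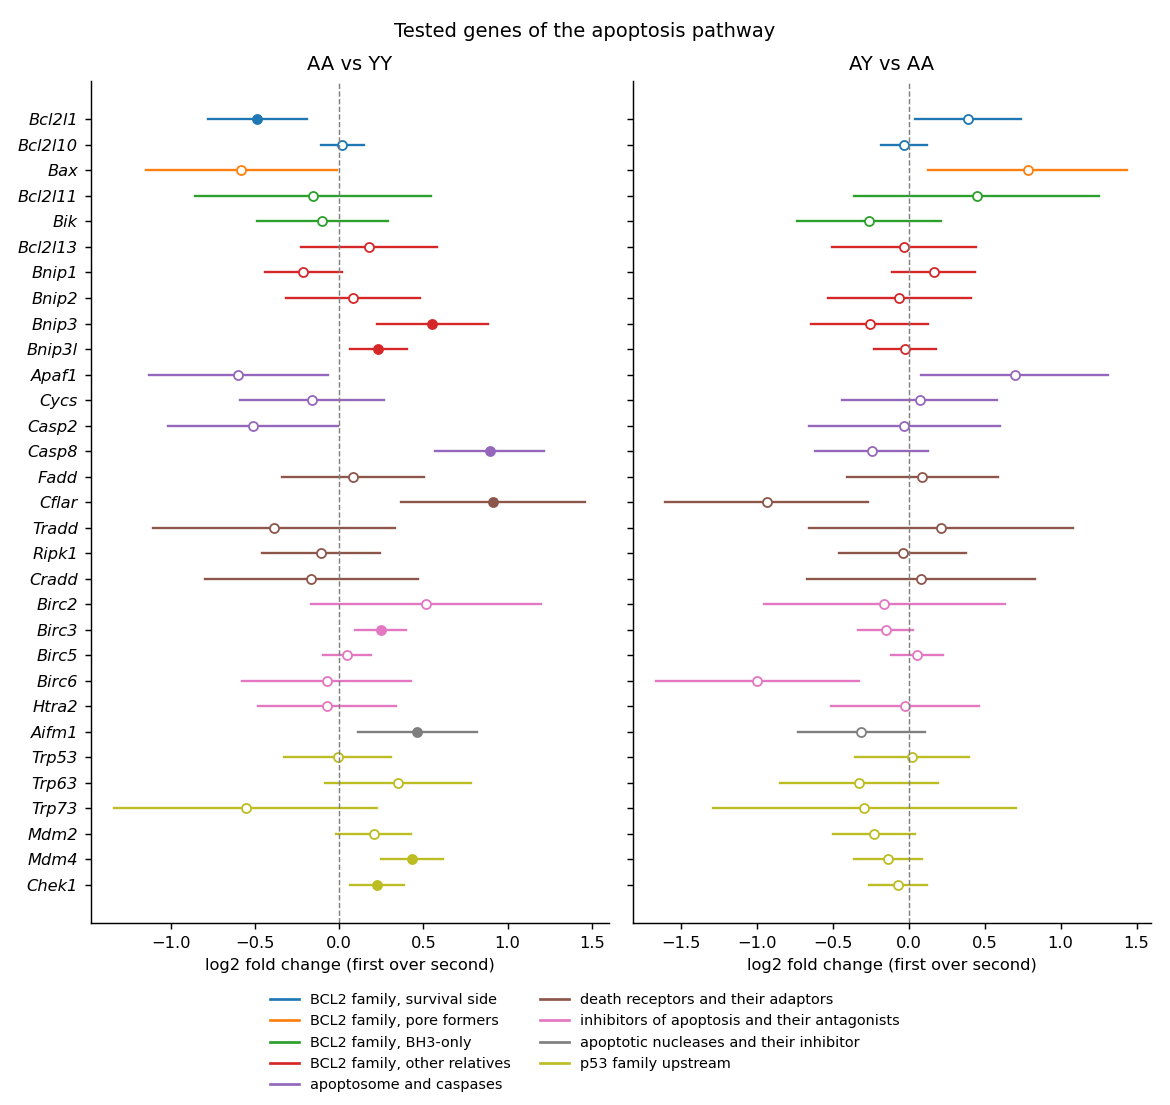
Log2 fold changes with 95% intervals of the 31 tested genes of the 9 apoptosis lists, members included, in AA vs YY (left) and AY vs AA (right), coloured by list; filled points passed the adjusted threshold of 0.05. In AA vs YY 8 genes are filled on the right of 0 and Bcl2l1 on the left, and none is filled in AY vs AA.

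In the other 4 comparisons edgeR called 0 of the 27 tested genes, among which Xiap took the place of Birc2 in the fit with the controls. In AY against AA, an unadjusted p under 0.05 was reached by 3 of them, Cflar, Birc6 and Apaf1, and DESeq2 called 1 and voom 2. Of all genes, DESeq2 called 712 and voom 848 in that comparison. Cflar averaged 19.2 ± 14.6 CPM in AY and 36.7 ± 17.5 CPM in AA oocytes (SD), a log2 change of -0.94 ± 0.33 (SE, edgeR adjusted p = 0.0767), and it was called without AY replicate 6 (-1.38, adjusted p = 0.0141). That was 1 of 18 fits that left out a library. Cflar was also called in 3 of 12 other settings, over which the adjusted p reached 0.606. These 3 were voom (-1.17, adjusted p = 0.0223), no filter on low counts (-0.96, adjusted p = 0.0075) and the count of detected genes in each library as covariate (-1.08, adjusted p = 0.0302). Birc6, a large ubiquitin ligase that restrains caspases, averaged 9.11 ± 5.40 CPM in AY and 17.7 ± 6.58 CPM in AA oocytes (SD), with a log2 change of -0.997 ± 0.33 (adjusted p = 0.0585), and is named after its value was seen. Birc6 averaged 19.1 ± 7.70 CPM in YY, 26.7 ± 6.90 CPM in in vitro young and 38.9 ± 2.91 CPM in in vivo young oocytes (SD), where no in vivo young library lay below 34.8 CPM. The unadjusted count was 3 in AY against YY, 2 in YY against in vitro young and 1 in in vitro young against in vivo young oocytes, and DESeq2 and voom called 0 in each of these 3. The share of all genes with an unadjusted p under 0.05 was not counted in any comparison.

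Genes with the profile most like a member over the 45 libraries were sought among 8404 genes. Bcl2l10 was nearest to Obox2, an oocyte homeobox gene (Pearson r 0.74, Spearman rho 0.75), and to Oosp1, an oocyte-secreted protein gene (0.74 and 0.71). Bcl2l1 was nearest to Usp10 (0.72 and 0.74) and Reep2 (0.71 and 0.75). For Casp8 the nearest were Vdac3 (0.72 and 0.72), a channel of the outer mitochondrial membrane, and Gdi2 (0.67 and 0.67), and for Bax they were Llgl2 (0.65 and 0.47) and Tbcc (0.64 and 0.62). The libraries share their group, their depth and their scaling across genes, so these values describe likeness over these oocytes and no more.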

How the data were processed

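Per the labels' protocols, single oocytes were lysed and their RNA was made into libraries with the NEBNext Single Cell/Low Input kit, with amplification of cDNA and of the library. The authors deposited whole-number read counts per gene, not normalized. STAR 2.7.8a, HTSeq 0.11.0 and mm39 are named in the submitters' processing notes, and strand use and the treatment of shared reads are not given in the sources used here. Columns were matched to samples by library number.

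Counts were fitted with edgeR 4.0.16 in R 4.3.3 (TMM scaling, filterByExpr by group with minimum count 10 and total 15, robust quasi-likelihood test, Benjamini-Hochberg adjustment over all tested genes, called under 0.05). AY, AA and YY shared 1 fit of 29 libraries, and YY, in vitro young and in vivo young another of 27. The 4 tested members were Bcl2l10, Bcl2l1, Bax and Casp8. CPM are TMM-scaled unless called unscaled or pooled, and standard errors come from the F statistic. Alternatives were RLE size factors, DESeq2 1.42.0, limma 3.58.1 (voom with quality weights), other filters and library sets, a replicate block, covariates, libraries summed or blocked by shared pattern, and each library left out in turn.

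The members and lists were chosen with earlier results of these data known. Named were all members, up to 3 called genes of each list in each comparison by smallest p, and the 2 genes most correlated with each member of at least 10 CPM (log2 CPM, prior count 2, predicted gene models left out). Trp53, Fadd, Apaf1, Birc6, Bcl2l11, Bik, Bcl2l2 and the Bcl2a1 genes were named after their values were seen. Same-numbered libraries of the groups compared did not deviate together in every pair, so the numbers were taken as names.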

Additional observations from a re-analysis of the deposited data

Results flagged for a closer look

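A library stood apart from the other values of its group, by Dixon's test at the 95% level, in 4 of 22 gene and group combinations of 4 to 10 libraries, where chance gives about 1 in 20. AY replicate 4 had 39.0 CPM of Bax, from 21 counts, against an AY median of 22.9 CPM. It was the smallest AY library, with 538916 counts in all, and its Bax count lay within the AY range of 14 to 24. AY replicate 1 had 6.17 CPM of Mcl1, from 7 counts, against an AY median of 1.58 CPM. The remaining 2 rest on single libraries with any count at all: AY replicate 6 with 3.77 CPM of Bcl2, from 3 counts, and in vivo young replicate 7 with 0.854 CPM of Bbc3, from 1 count.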

How the results depend on the processing

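Of the 4 tested members, 2 were called in AA against YY. This count was 1 with the shared pattern as a random block and 1 with the granulosa marker sum as a covariate (a setting chosen after seeing the data), and 0 with libraries of each pattern summed; leaving out each library in turn gave 2 to 3. In AY against AA, 0 were called, and 1 with voom and 1 with the replicate block (Bax, 1.10, adjusted p = 0.0294), with 0 in each fit that left out a library. In AY against YY, 0 were called, and 1 with DESeq2, with genes detected as a covariate or against YY libraries S225 to S231 alone, with 0 to 1 when a library was left out. In YY against in vitro young, 0 were called, and 2 with voom and 1 with DESeq2, a minimum count of 20, only the 2 groups in the fit, YY libraries S225 to S231 alone or all 45 libraries in 1 fit, with 0 to 1 when a library was left out. In in vitro young against in vivo young, 0 were called in all 12 other settings and all 16 fits without a library.

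The Casp8 change in AA against YY lay between 0.78 and 0.98 over 14 settings, called in 13, and between 0.83 and 0.99 in 23 fits without a library, called in all. The Bcl2l1 change lay between -0.57 and -0.41, called in 11 of 14 and in 23 of 23. Changes of sign occurred near 0 only. For Bcl2l10 in AA against YY these were -0.0024 at a minimum count of 20, -0.0131 with the pattern block, -0.0040 with YY libraries S225 to S231 alone, -0.0024 without AA replicate 6 and -0.0048 without YY replicate 8 (fits without a library spanned -0.0048 to 0.0409). For Bcl2l10 in AY against AA they were 0.0219 with the pattern block and 0.0316 with patterns summed. For Bcl2l10 in AY against YY they were 0.0039 with no filter, 0.0088 with the pattern block, 0.0341 with patterns summed, 0.0138 with YY libraries S198 to S202 alone, 0.0276 with the marker covariate, and -0.0380 to 0.0164 without a library. Bnip3l in AY against AA spanned -0.0677 to 0.0268 without a library. The cause was not tested.

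The replicate block changed no other member's call; Bnip3l in AA against YY was lost under it (adjusted p = 0.0557). Counts of all genes called moved by more than 1.5 times in some settings: AA against YY gave 2348, and 2 with patterns summed, 451 against YY libraries S198 to S202, 1103 with the pattern block and 1452 with the marker covariate. AY against AA gave 562 and 1 to 1078, AY against YY 138 and 0 to 847, YY against in vitro young 217 and 0 to 803, and in vitro young against in vivo young 12 and 0 to 44. No pair of neighbours in the order of levels was called with RLE size factors either, a setting added after seeing the data. The filter on low counts left 5 of 9 members untested in the main fits.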
